A study of Mus musculus with 4 samples.

Results

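The 10 genes Dcn, Bgn, Aspn, Fmod, Lum, Prelp, Omd, Epyc, Ogn and Chad encode small leucine-rich repeat proteins and proteoglycans of the extracellular matrix. They were chosen by family membership, and are 10 of the 34547 mouse genes in the tables. All 10 had enough counts to be tested, among 16607 genes tested in all. Their RNA was compared between hypertrophic chondrocytes (HC) of forelimb cartilage at E15.5 and proliferating chondrocytes (PC) of forelimb cartilage at E14.5 (days of embryonic development), both from C57BL/6 mice. Each group had 2 libraries, named HC replicates 3 and 4 and PC replicates 1 and 2, made from cells cut out of frozen sections by laser microdissection. Zone and day of development change together, so an effect of one and of the other cannot be told apart. The labels name no treatment or engineered allele in either group, and they do not say whether the libraries of a group came from separate embryos, so the spread between them may be technical.

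Proteins of this family have a core of leucine-rich repeats that folds into a curved band and binds collagen. Decorin, biglycan and other members carry chondroitin or dermatan sulphate chains, fibromodulin and lumican can carry keratan sulphate, and asporin and chondroadherin lack such chains. In cartilage and tendon they are known for setting the width and spacing of collagen fibrils, and several bind TGF-beta or BMP ligands. Hypertrophic chondrocytes are enlarged cells that have left the cell cycle and whose matrix mineralises.

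Most marker genes went with the labels of the groups. Of 9 hypertrophic markers, 9 lay higher in both HC libraries than in both PC libraries, as did 27.7% of all genes tested. Of these, 4 passed the test described below, Mef2c, Ihh, Alpl and Pth1r. Of 9 markers of proliferating cartilage, 7 lay lower in both HC libraries, as did 33.3% of all genes tested, and 1, Sox5, passed. Hapln1 went the other way, at 9744 and 7289 CPM in HC and 5376 and 7070 CPM in PC. Col2a1 overlapped between the groups. Col10a1, the collagen of hypertrophic cartilage, had 17803 and 26922 CPM in HC and 109 and 876 CPM in PC. PC replicate 2 thus stood above PC replicate 1 in that marker. Libraries held 15246529 and 21866266 estimated counts in HC and 30373440 and 36644496 in PC. The mitochondrial share of counts was 20.2% and 14.2% in HC and 8.86% and 13.2% in PC. CPM are counts relative to library size, scaled between libraries by the trimmed mean of M values (TMM), and TPM are transcript levels divided by length, which compare genes within a library.

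Members went in both directions, as genes in general did. In HC, Prelp fell, by 12.8-fold, and Epyc, Fmod and Lum were lower in both libraries without passing the test. Bgn, Dcn, Aspn and Omd were higher in both HC libraries, also without passing. Ogn and Chad overlapped between the groups. With edgeR's quasi-likelihood test, adjusted over all genes tested at a threshold of 0.05, 1 member of 10 passed, where 4.71% of all genes tested did. That member was lower in HC, as were 1.96% of all genes tested, and 0 members were higher, as were 2.75% of all genes tested. At an unadjusted p under 0.05 there were 7 members, where 27% of all genes tested reached that value. Of these 3 were lower, as were 14.4% of all genes tested, and 4 were higher, as were 12.7%. DESeq2 called the same counts, 3 lower and 4 higher, where it called 8.44% of genes lower and 9.63% higher. The 4 members that lay below in both HC libraries compare with 33.3% of all genes tested, and the 4 that lay above with 27.7%. The median log2 fold change was -0.23 over the members and -0.04 over all genes tested. In bulk RNA, fewer cells of a type and less RNA per cell cannot be told apart.

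**Figure D1:**
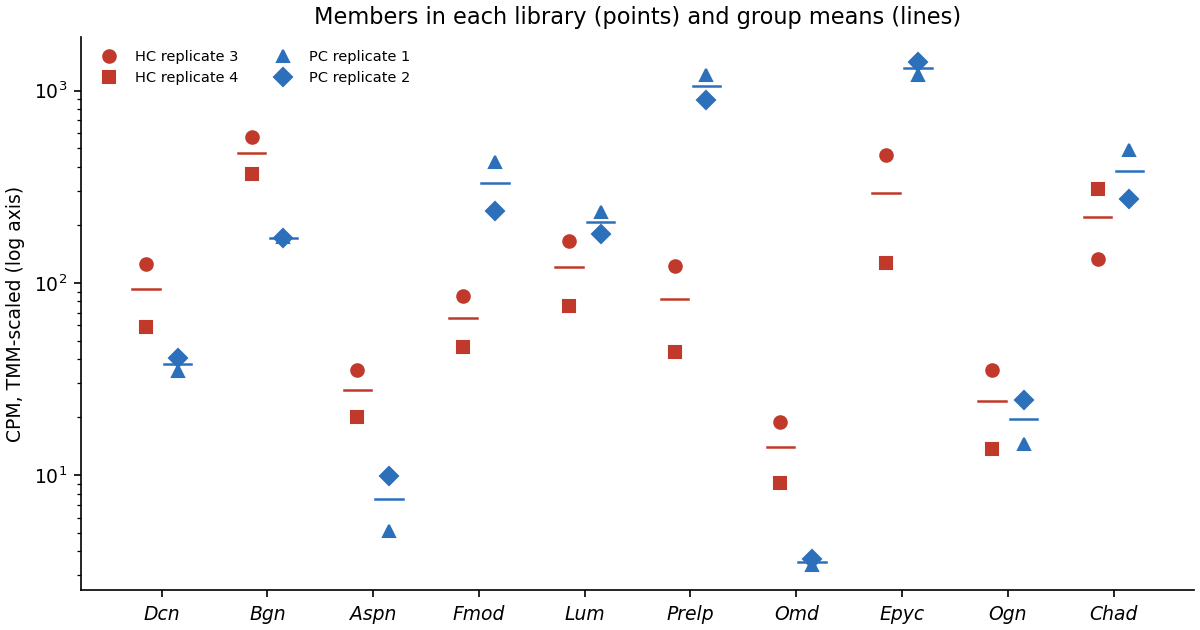
CPM of the 10 members (TMM-scaled, log axis) in each library, with HC left of PC for each gene; points are single libraries and lines are group means. Bgn, Dcn, Aspn and Omd lie higher in both HC libraries, Prelp, Epyc, Fmod and Lum lie lower, and Ogn and Chad overlap.

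The stretches of promoter below stand before some of the members with wide differences in either direction. Prelp is the member that passed, while Fmod, its neighbour on chromosome 1, Epyc, and Aspn, which was higher in HC, were added after their values were seen. Each runs from 250 bases before to 50 bases after a transcription start in RefSeq (build GRCm38.p6) and is read along the gene's own strand. Capitals mark the letters AACAAT, found at the core of sites for SOX factors, and TGTGGT, found at the core of RUNX sites, on either strand (ATTGTT and ACCACA when read on the other one).
Prelp, chr1:133921352-133921651, minus strand: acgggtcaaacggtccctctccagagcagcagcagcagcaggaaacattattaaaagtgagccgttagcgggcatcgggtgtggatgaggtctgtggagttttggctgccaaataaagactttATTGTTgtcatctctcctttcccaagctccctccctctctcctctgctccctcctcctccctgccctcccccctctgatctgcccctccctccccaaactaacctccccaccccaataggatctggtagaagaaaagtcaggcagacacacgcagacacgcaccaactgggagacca
Fmod, chr1:134037004-134037303, plus strand: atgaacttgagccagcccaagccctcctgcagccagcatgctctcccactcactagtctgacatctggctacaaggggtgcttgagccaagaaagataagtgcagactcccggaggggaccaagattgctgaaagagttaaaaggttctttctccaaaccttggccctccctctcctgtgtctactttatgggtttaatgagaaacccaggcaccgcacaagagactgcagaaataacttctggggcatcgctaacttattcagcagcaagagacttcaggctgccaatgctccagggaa
Epyc, first start, chr10:97643818-97644117, plus strand: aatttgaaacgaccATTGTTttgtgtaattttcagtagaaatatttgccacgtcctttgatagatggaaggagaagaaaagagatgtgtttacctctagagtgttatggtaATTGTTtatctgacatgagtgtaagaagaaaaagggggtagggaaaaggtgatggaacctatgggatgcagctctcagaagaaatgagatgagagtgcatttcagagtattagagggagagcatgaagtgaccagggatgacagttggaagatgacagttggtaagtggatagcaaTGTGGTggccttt
Epyc, second start, chr10:97646853-97647152, plus strand: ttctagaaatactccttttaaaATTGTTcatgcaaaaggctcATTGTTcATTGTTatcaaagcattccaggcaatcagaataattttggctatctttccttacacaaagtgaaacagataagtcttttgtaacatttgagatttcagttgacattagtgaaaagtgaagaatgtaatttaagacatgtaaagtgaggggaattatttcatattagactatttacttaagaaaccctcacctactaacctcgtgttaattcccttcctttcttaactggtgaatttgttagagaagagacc
Aspn, chr13:49544193-49544492, plus strand: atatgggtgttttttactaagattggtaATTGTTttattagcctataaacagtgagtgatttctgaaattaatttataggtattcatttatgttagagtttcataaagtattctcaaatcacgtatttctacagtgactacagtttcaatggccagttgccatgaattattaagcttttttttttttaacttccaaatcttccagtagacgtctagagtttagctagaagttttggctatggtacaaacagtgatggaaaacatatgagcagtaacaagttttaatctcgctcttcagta

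The Prelp window held 1 SOX-type match, 127 bases before the start. The Epyc windows held 2 such matches at the first start, with a RUNX-type match 37 bases after it, and 3 at the second, the last 2 of them with a single base between, 208 and 201 bases before the second start. Aspn also held 1, and Fmod held neither motif. The window of Omd, which is not shown, also held neither. Over the whole gene Omd was 3.95-fold higher in HC, and Aspn 3.70-fold. The Omd window lies at the first base of the gene, while the transcript Omd-201 begins further inside. Omd-201 had 8.25 and 4.16 TPM in HC and 0.605 and 1.25 TPM in PC. The other transcript, Omd-202, overlapped between the groups, at 1.51 and 2.53 TPM in HC and 2.04 and 1.43 TPM in PC. Over the 9 windows of the 8 members with an entry, 5 held the SOX-type letters, against 10.7% of all 32851 windows of that length. Both Epyc windows are among the 5. GC content was 55.3% in the Prelp window, 40.3% and 32.3% in those of Epyc, 31% in Aspn and 42.3% in Ogn. Over all windows it was 53.8%. The letters AACAAT are rich in A and T, and the part of base composition in these counts was not tested. The RUNX-type letters were in 2 of the 9, against 16.8% of all windows, and TATAAA in 3, against 13.6%. The GC box GGGCGG was in 2, against 35.7%, and TGANTCA, the AP-1 motif, in 0, against 7.81%. Members lower and higher in HC both held the SOX-type letters. These matches describe letters in a window, and whether a factor binds there was not tested.

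The closest relatives decorin, biglycan and asporin, whose genes have 8 exons each, had higher values in HC. Bgn (chromosome X, 73483602 to 73495933), which encodes a proteoglycan with chondroitin or dermatan sulphate chains that is abundant in bone, had 575 and 368 CPM in HC, against 174 and 170 CPM in PC. Both HC libraries stood above both PC libraries, which lay close together. On the log2 scale HC stood 1.45 ± 0.35 above PC (SE, 2 libraries a group, edgeR adjusted p = 0.0728). The difference was 1.06 without HC replicate 3 and 1.69 without HC replicate 4. Dcn (chromosome 10, 97479609 to 97518143) encodes decorin, which binds collagen I fibrils and TGF-beta. It had 125 and 59.2 CPM in HC and 34.8 and 40.5 CPM in PC. The groups did not overlap, but HC replicate 4 stood nearer to PC than to HC replicate 3, and at 1.29 ± 0.42 on the log2 scale Dcn missed the threshold (edgeR adjusted p = 0.123). Without HC replicate 3 it was 0.62, and without HC replicate 4 it was 1.69. The level per length of Bgn exceeded that of Dcn in every library, with TPM ratios of Bgn to Dcn of 3.27 and 4.97 in HC and 4.25 and 3.21 in PC. That ratio overlapped between the groups.

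Aspn (chromosome 13, 49544443 to 49567565) encodes asporin, which inhibits TGF-beta signalling and marks the perichondrium and periosteum. It was expressed at a low level, at 35.3 and 20.1 CPM in HC and 5.09 and 9.86 CPM in PC. Its log2 fold change was 1.89 ± 0.51 (edgeR adjusted p = 0.088). The groups were apart, by about as much as the PC libraries were from each other. Dropping HC replicate 3 moved the log2 difference of Aspn to 1.39, and dropping HC replicate 4 moved it to 2.19. With PC replicate 1 dropped it stood at 1.45, and with PC replicate 2 dropped at 2.41.

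Several lists of markers of other cells had higher sums in HC, while single markers went both ways. Of 9 perichondrium and fibroblast markers tested, 3 rose in HC, Fap, Postn and Twist1, and 0 fell, and the 10 listed summed to 13574 and 4772 CPM in HC and to 1055 and 1541 CPM in PC. Col1a1 and Col1a2 made up most of that sum, while Fbln1 and Pdgfra lay lower in both HC libraries and Dpt was at 0 in HC replicate 3. The 6 osteoblast markers summed to 512 and 429 CPM in HC and 39.1 and 49.2 CPM in PC, with 1 of 5 tested higher, Phex, Bglap2 at 0 in both HC libraries and Bglap at 0 in PC replicate 1. The other lists summed in HC and PC as follows. Endothelial markers had 237 and 125 CPM in HC and 24.4 and 21.6 in PC, with 2 of 5 higher (Cdh5 and Kdr). Macrophage and osteoclast markers had 347 and 162 CPM in HC and 13.3 and 25.9 in PC, with 3 of 5 higher (Ctsk, Acp5 and Cd68). Muscle markers had 267 and 59.0 CPM in HC and 15.3 and 20.5 in PC, with Myh3 of 6 higher, and red blood cell markers had 318 and 296 CPM in HC and 21.2 and 40.8 in PC, with 3 of 5 higher (Hbb-bs, Hba-a2 and Hbb-bt, which share reads with near-identical copies). The 4 epidermal markers summed to 26.4 and 24.3 CPM in HC and 1.16 and 2.21 CPM in PC, with Perp of 3 tested higher, and Krt5 was at 0 in both HC libraries. Tendon markers summed to 564 and 226 CPM in HC and 164 and 185 in PC, with 0 of 4 called. Tnc alone gave 554 and 219 CPM of that in HC and 145 and 160 in PC, and the median of the list was -0.79. Mkx, at 8.20 and 5.81 CPM in HC and 15.8 and 22.1 in PC, and Scx, at 0 and 0.045 CPM in HC and 1.37 and 0.649 in PC, lay lower in both HC libraries, and Tnmd was at 0 in HC replicate 4 and PC replicate 1. Joint markers summed to 102 and 89.5 CPM in HC and 61.5 and 48.3 in PC, of which Prg4 gave 101 and 82.4 CPM in HC and 35.9 and 32.03 in PC. Of the 6, Sfrp2 fell and 4 in all lay lower in both HC libraries, with a median of -2.06, and Gdf5, Erg and Osr2 were at 0 in HC replicate 3. In each of these lists the CPM sum of HC replicate 3 stood above that of HC replicate 4. The same held for 9 of the 10 members in CPM and for 7 in TPM, among them members higher and members lower in HC. How many of all genes tested did so was not counted. The sums of the chondrocyte lists went the other way. Hypertrophic markers summed to 34576.5 CPM in HC replicate 3 and 42207 CPM in HC replicate 4, and proliferating markers to 30398 and 35678.5 CPM. The part of such cells in the values of Bgn, Dcn, Aspn and Omd was not tested.

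The next group, fibromodulin, lumican, prolargin and osteomodulin, whose main transcripts have 3 exons each, held members of both directions. Prelp (chromosome 1, 133910304 to 133921414) encodes prolargin, an arginine- and proline-rich protein that ties collagen to heparan sulphate on other molecules. It had 122 and 43.4 CPM in HC, against 1211 and 896 CPM in PC. Both HC libraries lay far under both PC libraries, and the gap between groups was wider than that between the HC libraries, which differed 2.80-fold. The log2 fold change was -3.68 ± 0.59 (edgeR adjusted p = 0.0392). It was -4.63 without HC replicate 3 and -3.16 without HC replicate 4. The call was lost with scaling to library size alone (-4.03, edgeR adjusted p = 0.0515) and with protein-coding transcripts only (-3.48, edgeR adjusted p = 0.0626), and with the limma fits on TPM. Fmod (chromosome 1, 134037254 to 134048277) encodes fibromodulin, which shapes collagen fibrils of cartilage and tendon. It had 85.7 and 46.1 CPM in HC and 425 and 237 CPM in PC, 5.03-fold lower in HC. The groups were well apart, yet the change of -2.33 ± 0.47 lay just beyond the threshold (edgeR adjusted p = 0.0533). The change was -2.88 without HC replicate 3 and -1.89 without PC replicate 1.

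Lum (chromosome 10, 97565128 to 97572703) encodes lumican, a keratan sulphate proteoglycan best known from the cornea. It had 165 and 75.9 CPM in HC and 235 and 180 CPM in PC. HC replicate 3 lay just under PC replicate 2, and the log2 difference of -0.78 ± 0.44 missed the threshold (edgeR adjusted p = 0.32). Leaving out HC replicate 3 gave -1.48, and leaving out HC replicate 4 gave -0.37. Fmod stood below Lum per length in HC and above it in PC, with TPM ratios of Fmod to Lum of 0.420 and 0.601 in HC and 1.45 and 1.10 in PC. Such a ratio within a library does not depend on scaling between libraries. Omd (chromosome 13, 49582462 to 49592822) encodes osteomodulin, a keratan sulphate proteoglycan of bone made by osteoblasts. It had the lowest level of the family, with 18.8 and 9.05 CPM in HC and 3.40 and 3.63 CPM in PC. The PC libraries lay together under both HC libraries, but the log2 difference of 1.98 ± 0.55 missed the threshold (edgeR adjusted p = 0.0912). The difference was 1.33 with HC replicate 4 alone and 2.37 with HC replicate 3 alone. Omd rests on few reads, 232 and 201 counts in HC and 117 and 140 counts in PC.

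Epyc and Ogn form another group of the family, of which Epyc had the highest level per length of the family in PC. Epyc (chromosome 10, 97644068 to 97682454) encodes epiphycan, a proteoglycan of growth plate cartilage. It had 463 and 127 CPM in HC and 1206 and 1409.65 CPM in PC. Both HC libraries were lower, but they differed 3.65-fold from each other, the widest gap between replicates among the members. At -2.15 ± 0.64 on the log2 scale Epyc missed the threshold (edgeR adjusted p = 0.103). The change was -3.40 without HC replicate 3 and -1.55 without HC replicate 4. Ogn (chromosome 13, 49608046 to 49624501) encodes osteoglycin, also called mimecan, a matrix protein of bone and connective tissue. It had 35.2 and 13.6 CPM in HC and 14.4 and 24.5 CPM in PC. The groups overlapped, with the highest and the lowest value both in HC, and the change of 0.32 ± 0.55 had no settled direction (edgeR adjusted p = 0.756). It was -0.55 without HC replicate 3, -0.05 without PC replicate 1 and -0.27 with limma on log2(TPM + 1).

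Chad (chromosome 11, 94565047 to 94569127) encodes chondroadherin, a cartilage protein that binds integrins and collagen II. It had 132 and 308 CPM in HC and 491 and 274 CPM in PC. HC replicate 4 lay between the PC libraries, and Chad was the 1 member of 10 with a higher CPM in HC replicate 4 than in HC replicate 3. The log2 difference was -0.80 ± 0.52 (edgeR adjusted p = 0.38). Leaving out HC replicate 4 gave -1.58, and leaving out HC replicate 3 gave -0.35.

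**Figure D2:**
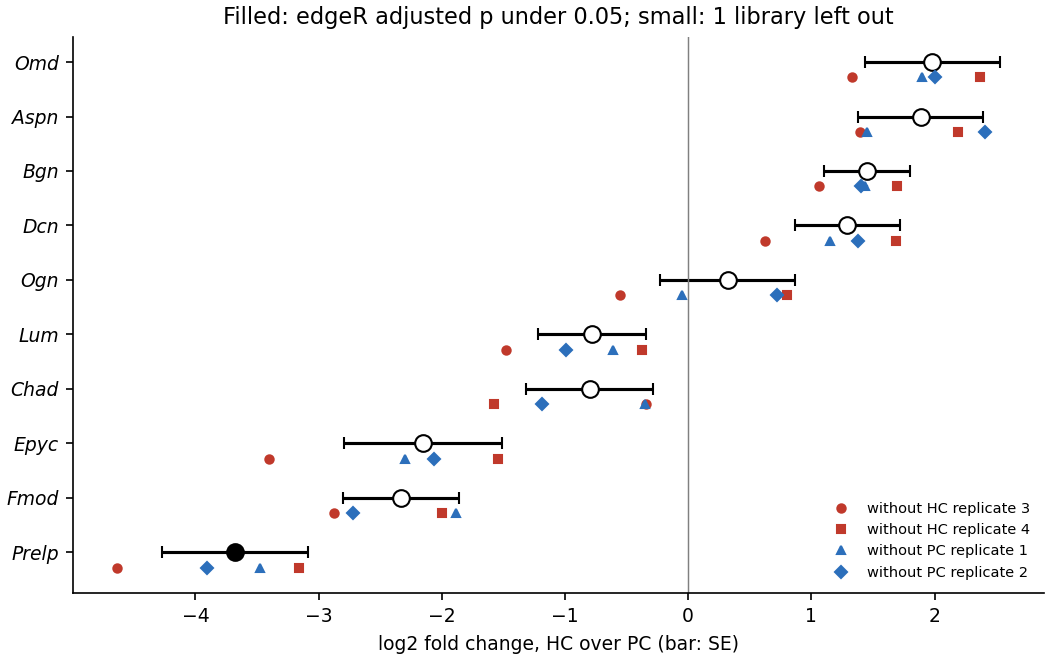
Log2 fold change of each member, HC over PC, with its SE (bars); the filled point passed with edgeR, and small points give the change with 1 library left out. Prelp, at -3.68, is the filled point, and the sign of the other members except Ogn is the same with each library left out.

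Per length, the order of the members differed between groups. The summed TPM of the 10 members was 695 and 719 in HC and 2963 and 2225 in PC. In TMM-scaled CPM, which compare libraries, the groups lay closer, at 1757 and 1069 in HC and 3799 and 3245 in PC. In HC the means of Bgn (210 ± 14.9 TPM, SD, n = 2), Epyc (161 ± 91.1 TPM) and Chad (158 ± 127 TPM) came first, with spreads that overlap. Bgn was the highest member in neither HC library, with Epyc above it in HC replicate 3 (225 against 199 TPM) and Chad above it in HC replicate 4 (248 against 220.4 TPM). Dcn (52.7 ± 11.8 TPM) and Lum (48.7 ± 11.3 TPM) followed and did not differ beyond their spread, nor did Fmod (24.1 ± 0.478 TPM) and Prelp (24.0 ± 5.26 TPM). Aspn (12.2 ± 0.99 TPM), Ogn (9.20 ± 3.20 TPM) and Omd (8.22 ± 2.17 TPM) came last. In PC the order began with Epyc (1152 ± 9.53 TPM) and Prelp (613 ± 220 TPM), and went on with Chad (361 ± 178 TPM), Fmod (168 ± 78.7 TPM), Lum (128 ± 36.5 TPM) and Bgn (121 ± 23.1 TPM). Of these, Prelp and Chad overlap in spread, as do Chad and Fmod, and Fmod, Lum and Bgn. Dcn (32.5 ± 0.222 TPM), Ogn (11.1 ± 3.04 TPM), Aspn (4.77 ± 1.73 TPM) and Omd (2.66 ± 0.0247 TPM) had the lowest levels in PC. Beside these levels, the median log2 difference in TPM + 1 was -0.48 over the 14393 genes that passed a filter on mean TPM and -0.17 over 24360 genes without that filter.

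Shares of the family's TPM, which do not depend on that shift, lay far apart for Bgn and Prelp. Bgn made up 28.7% and 30.6% in HC and 4.64% and 4.70% in PC. Shares depend on each other, so that a share rises where other members fall. The mean TPM of Bgn in HC was 1.73 times that in PC, and that of Dcn 1.62 times. Prelp made up 3.99% and 2.82% in HC and 25.95% and 20.6% in PC. Epyc made up 32.4% and 13.4% in HC and 38.6% and 52.1% in PC. Chad overlapped, at 9.73% and 34.5% in HC and 16.4% and 10.6% in PC. The share of Dcn was 8.77% and 6.16% in HC, against 1.09% and 1.47% in PC. Within a library the TPM ratio of Prelp to Bgn was 0.139 and 0.092 in HC and 5.60 and 4.37 in PC. That of Epyc to Dcn was 3.69 and 2.17 in HC and 35.4 and 35.5 in PC. These shares and ratios were not tested.

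**Figure D3:**
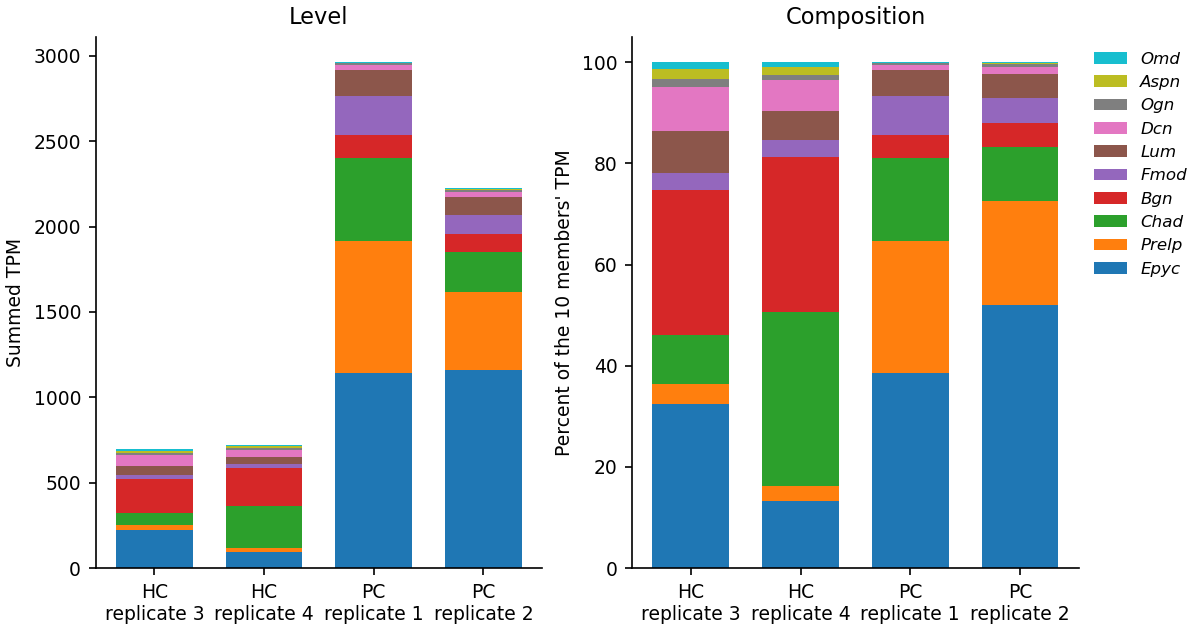
Summed TPM of the 10 members (left) and their share of it in percent (right) in each library, HC libraries left of PC libraries. The sum is 695 and 719 TPM in HC and 2963 and 2225 TPM in PC, and Bgn takes 28.7% and 30.6% of it in HC and 4.64% and 4.70% in PC.

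Most members are read from 1 main transcript in both groups. Prelp has the coding transcript Prelp-201 of 3615 bases and a shorter one without an annotated coding region, Prelp-202, of 823 bases. Prelp-201 alone had 27.7 and 14.3 TPM in HC and 469 and 310 TPM in PC, apart in the same way as the whole gene. Prelp-202 had 0 and 73 estimated counts in HC and 4495 and 2904 in PC, and made up 0% and 29.6% of the gene's TPM in HC and 39.0% and 32.2% in PC. The coding transcript Bgn-201 had 199 and 187 TPM in HC and 106 and 94.9 TPM in PC, so both HC libraries stood higher there too, and the transcript without an annotated coding region, Bgn-203, had 0 and 29.9 TPM in HC and 30.3 and 9.04 TPM in PC. For Epyc, the transcript Epyc-201 took 95.3% and 93.7% of TPM in HC and 97.2% and 97.1% in PC, and the rest came from Epyc-202. Omd-201, which begins further inside the gene than Omd-202, took 84.6% and 62.2% of TPM in HC and 22.9% and 46.5% in PC. Its groups did not overlap, on few reads. Dcn-201 and Dcn-202 are both of 1758 bases and share reads by estimate, with Dcn-202 at 0 counts after rounding in both HC libraries and at 8.51% and 28.8% of TPM in PC. How well reads were assigned to single transcripts is not known, and these shares were not tested.

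Annotated genes on the opposite strand cover parts of some members, and the strand setting of the authors' counting is not given. Gm15851 shares 350 exon bases with Prelp and Gm10754 shares 1041 with Epyc, and reads of these pairs could not be told apart where they overlap; neither was analysed here. Cenpp, which spans Aspn, Omd and Ogn, shares 7 exon bases with Aspn and 0 with the other two, and Acsf2 shares 0 with Chad. Cenpp had 0.487 and 1.22 CPM in HC and 3.31 and 3.56 CPM in PC.

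Most of the family's genes lie in 3 groups of neighbours. On chromosome 10, Dcn, Lum, Kera and Epyc lie on the same strand within 203 kb, and their log2 fold changes alternate in sign along it, at 1.29, -0.78, 2.74 and -2.15. Kera encodes keratocan, a lumican-like protein of the cornea, and had 3.82 and 6.53 CPM in HC and 0.61 and 0.935 CPM in PC (edgeR adjusted p = 0.101). On chromosome 13, Ecm2, Aspn, Omd and Ogn lie within 120 kb on the same strand, with changes of 1.03, 1.89, 1.98 and 0.32. On chromosome 1, Prelp and Fmod lie within 151 kb together with Optc, at -3.68 and -2.33, while Optc, a gene of the eye with 2.76 and 0.45 CPM in HC and 1.42 and 1.90 CPM in PC, had -0.06 ± 1.1. Neighbours on chromosome 10 thus did not share a sign and the members on chromosomes 1 and 13 did, apart from the unsettled Ogn. Bgn and Chad lie alone on chromosomes X and 11.

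**Figure D4:**
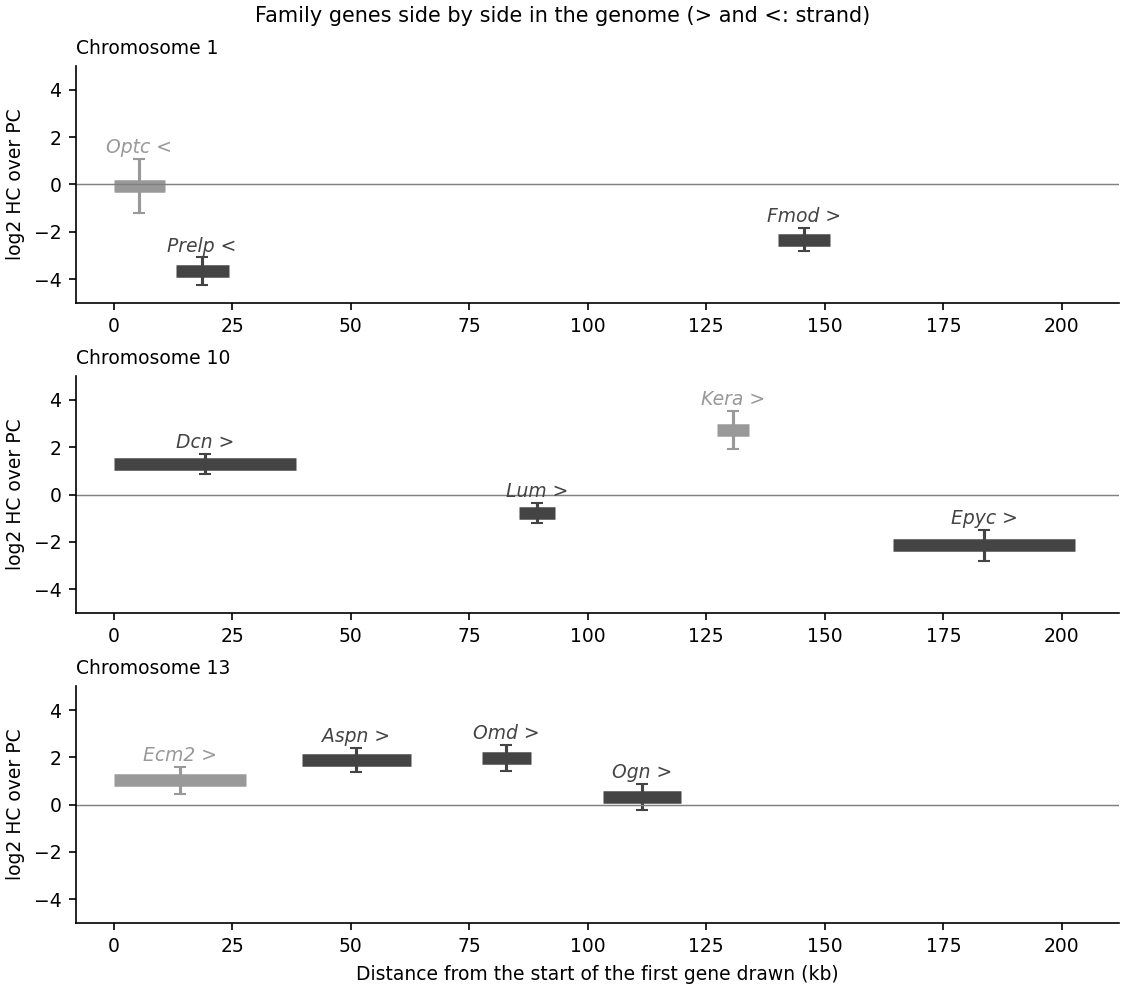
Log2 fold change, HC over PC, of family genes drawn at their distance in kb from the first gene of each group of neighbours; thick bars span the gene, thin bars are the SE, and grey genes are relatives outside the 10 members. Signs alternate on chromosome 10 (1.29, -0.78, 2.74 and -2.15), where no gene drawn passed. The members on chromosome 1 lie below 0, and Aspn and Omd on chromosome 13 lie above it, while Ogn (0.32 ± 0.55) had no settled direction.

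The other leucine-rich repeat genes of the extended family had 1 of 8 lower in HC and 0 higher (edgeR; 2 lower and 2 higher at an unadjusted p under 0.05, and also with DESeq2), with a median of 0.35. Tsku, which encodes tsukushi, a secreted inhibitor of BMP and Wnt signals, fell to 12.3 and 7.92 CPM in HC, against 56.8 and 40.4 CPM in PC (-2.27 ± 0.39, edgeR adjusted p = 0.0422), a call lost on leaving out PC replicate 1 (-2.04, edgeR adjusted p = 0.075) or with a length offset (-2.19, edgeR adjusted p = 0.0666). Chadl, a relative of Chad, had 4.14 and 16.8 CPM in HC and 121 and 34.9 CPM in PC and did not pass (-2.88 ± 0.86, edgeR adjusted p = 0.103). Its change was -1.77 without PC replicate 1 and -4.28 without HC replicate 4.

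Enzymes that build the sugar chains of these proteins were listed by chain, with tyrosine sulphation beside keratan sulphate. Both lists had a median below 0, at -0.34 for the keratan and tyrosine list, and they were not tested against each other. Of 20 genes of chondroitin and dermatan sulphate chains tested, 0 passed in either direction with edgeR. At an unadjusted p under 0.05, 10 were lower and 1 higher, where 14.4% and 12.7% of all genes tested were. DESeq2 called 7 lower and 1 higher, where it called 8.44% and 9.63% of genes. The list's median was -0.99, and 14 lay lower in both HC libraries, as did 33.3% of all genes tested. Chst11, which adds sulphate to chondroitin, had 328 and 160 CPM in HC and 1126 and 1179 CPM in PC (-2.24 ± 0.45, edgeR adjusted p = 0.0518). Its change was -2.88 without HC replicate 3 and -1.86 without HC replicate 4. Csgalnact1, which starts the chondroitin chain, had 146 and 78.6 CPM in HC and 338 and 413 CPM in PC (-1.75 ± 0.40, edgeR adjusted p = 0.0664). Of 10 genes of keratan sulphate chains and tyrosine sulphation, 1 rose and 0 fell (1 higher and 1 lower at an unadjusted p under 0.05, and the same counts with DESeq2), while 3 lay higher and 5 lower in both HC libraries. The gene that rose was Chst1, the sulphotransferase of keratan sulphate galactose, with 22.7 and 42.0 CPM in HC and 3.75 and 3.71 CPM in PC (3.12 ± 0.45, edgeR adjusted p = 0.0365). Tpst1 and Tpst2, which sulphate tyrosines, stood at -2.43 ± 0.76 and -0.18 ± 0.46, short of the threshold. Tpst1 stood at -4.09 without HC replicate 3 and at -1.71 without HC replicate 4.

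Of 17 collagens that the family binds or accompanies, 1 rose, 1 fell and 15 did not pass, with a median of -0.36. Over all genes tested, 2.75% rose and 1.96% fell. At an unadjusted p under 0.05, 4 collagens were higher and 4 lower, where 12.7% and 14.4% of all genes tested were. DESeq2 called 4 higher and 4 lower, where it called 9.63% and 8.44% of genes. Col5a2, a chain of the collagen V that starts fibrils, rose to 525 and 527 CPM in HC, against 31.4 and 51.7 CPM in PC (3.66 ± 0.39, edgeR adjusted p = 0.0359). Col27a1, a cartilage collagen, fell to 468 and 475 CPM in HC, against 1881 and 1534 CPM in PC (-1.86 ± 0.34, edgeR adjusted p = 0.0459), which missed the threshold on leaving out PC replicate 1 (-1.74, edgeR adjusted p = 0.0623) or with a length offset (-1.98, edgeR adjusted p = 0.0584). Col2a1 and Col11a1, the most abundant of them per length, had -0.36 ± 0.47 and -0.48 ± 0.41 and did not pass.

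Of 18 ligands, receptors and matrix adaptors that members bind, 3 rose and 0 fell with edgeR, with a median of 1.11. At an unadjusted p under 0.05, 10 were higher and 2 lower, where 12.7% and 14.4% of all genes tested were. DESeq2 called 9 higher and 2 lower. Itga2, a collagen-binding integrin chain, had 208 and 260 CPM in HC and 4.04 and 10.2 CPM in PC (5.03 ± 0.56, and 5.82 without PC replicate 2). Tgfb1, a ligand bound by decorin, biglycan, asporin and fibromodulin, rose by 2.56 ± 0.42, and Bmp2, whose signal biglycan modulates, by 3.14 ± 0.38 on the log2 scale. Their edgeR adjusted p-values were 0.0359, 0.0392 and 0.0359 for Itga2, Tgfb1 and Bmp2. Itgb1 and Matn1, the most abundant genes of the list per length, had 0.84 ± 0.30 and -1.40 ± 0.39 and did not pass. Of 9 proteases tested that cut or process members, 0 passed with edgeR, while 6 were higher and 1 lower both at an unadjusted p under 0.05 and with DESeq2, with a median of 2.25. Mmp13, a collagenase of hypertrophic cartilage that also cuts fibromodulin and biglycan, had 2182 and 2426 CPM in HC and 8.51 and 117 CPM in PC (5.20 ± 1.2, edgeR adjusted p = 0.0716). Its log2 difference was 8.05 without PC replicate 2 and 4.26 without PC replicate 1. Mmp9 had 842 and 563 CPM in HC and 4.01 and 51.8 CPM in PC (4.65 ± 1.2, edgeR adjusted p = 0.0797), with 7.42 without PC replicate 2 and 3.72 without PC replicate 1. Each of these fits without a PC library has 1 PC library left.

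**Figure D5:**
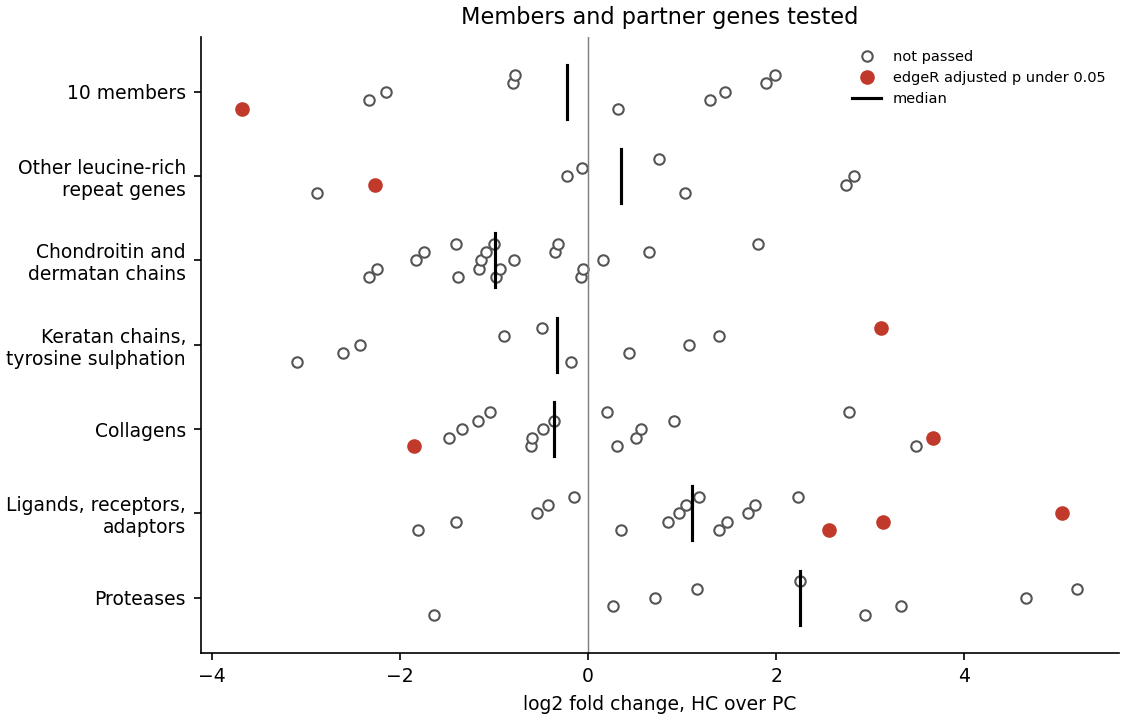
Log2 fold change, HC over PC, of the 10 members and of 6 lists of partner genes; each point is a gene tested, filled points passed with edgeR and black lines are medians. The medians run from -0.99 for chondroitin and dermatan chain genes to 2.25 for proteases, where 0 genes of either list passed.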

How the data were processed

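RNA of 4 libraries, 2 of HC and 2 of PC, was purified with a Qiagen micro kit and made into libraries with NuGen's Ovation FFPE kit, per the labels' protocols. The authors ran Trimmomatic 0.36 and kallisto 0.43.1, which assigns reads to transcripts, with build mm10, per the submitters' processing notes. Annotation release and strand setting: not given in the sources used here. The deposited tables hold an estimated count, a TPM value and lengths in bases per transcript, per the file headers. Estimated counts share ambiguous reads by likelihood, and TPM keeps no depth.

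Of 109282 transcripts, 107987 matched GENCODE M21 (GRCm38), whose coordinates are given, counted from 1. Summing over a gene's transcripts and rounding gave whole counts, which were filtered with filterByExpr, scaled by TMM and tested with the quasi-likelihood F-test of edgeR 4.0.16 in R 4.3.3, for HC over PC, with Benjamini-Hochberg adjusted p-values across the 16607 genes at a threshold of 0.05. SE was derived from the coefficient and its F. DESeq2 1.42.0 and limma 3.58.1 were used for alternatives, and the code was tested on simulated data. Depth was 15246529 to 36644496 counts, and each group has 2 libraries.

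The members, lists and tests were chosen with earlier results of these data known. Named are the 10 members and, of each list, up to 4 genes per direction that passed and the 2 most abundant per length. Ctgf and Wisp1 were matched as Ccn2 and Ccn4. Promoters come from RefSeq (GRCm38.p6), where 8 of 10 members matched.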

Additional observations from a re-analysis of the deposited data

How the results depend on the processing

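Across 13 alternatives Prelp, Fmod, Epyc, Lum and Chad had lower values and Bgn, Dcn, Aspn and Omd higher values in HC in each. Ogn reversed to -0.27 with limma on log2(TPM + 1), with and without the filter, to -0.29 with log2(TPM + 0.1), and to -0.05 without PC replicate 1, and ran from -0.55 (without HC replicate 3) to 0.81 (without HC replicate 4). Tpst2 reversed to 0.054 without HC replicate 3, was -0.57 without HC replicate 4, and was -1.06 with a length offset and -1.64 to -1.79 with limma on TPM. Calls moved far more than values, and the cause was not tested. With 1 library left out, 3 to 8 members passed, 3 to 4 lower and 0 to 4 higher, as did 13 to 44 partner genes, 379 to 3331 genes higher and 257 to 3775 lower over all genes; the lone library of a group is then assumed to vary like the other group. DESeq2 called 7 members (3 lower and 4 higher), 40 partner genes and 1651 higher and 1446 lower genes. Without a low-count filter edgeR called 5 members (3 lower and 2 higher), 28 partner genes and 963 higher and 965 lower genes, and with a length offset 258 higher and 164 lower genes. Scaling to library size alone shifted the median of all genes to -0.29 and called 0 members, 0 partner genes and 0 genes in either direction (4394 genes and 8 members at an unadjusted p under 0.05). The 3 limma fits on TPM called 0 likewise (3411 to 4543 genes and 6 members at an unadjusted p under 0.05), as did edgeR on protein-coding transcripts only (3761 genes and 7 members). In these 5 fits the call of Prelp was lost. As reported, 7 partner genes, 457 higher and 325 lower genes passed.

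With protein-coding transcripts only, mean shares of the family's TPM moved to 28.1% for Bgn in HC and 4.30% for Bgn in PC, and to 16.4% for Prelp in PC. In single libraries the shares ran from 28.7% to 30.6% for Bgn, 13.4% to 32.4% for Epyc, 9.73% to 34.5% for Chad and 2.82% to 3.99% for Prelp in HC. They ran from 4.64% to 4.70%, 38.6% to 52.1%, 10.6% to 16.4% and 20.6% to 25.95% in PC. No paired analysis was possible because the groups share no replicate numbers. Omd and Aspn rest on the fewest reads.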

Other observations

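Genes that flank the groups of family genes, taken as the 2 nearest protein-coding genes tested on each side and chosen after the data were seen, gave the following values. On chromosome 1, next to Prelp and Fmod, the calcium pump gene Atp2b4 rose to 155 and 190.4 CPM in HC, against 44.5 and 45.8 CPM in PC (1.93 ± 0.295, edgeR adjusted p = 0.037), 96.2 kb before the group. Btg2, an inhibitor of proliferation 26.9 kb after it, had 15.7 and 13.8 CPM in HC and 3.92 and 4.72 CPM in PC and did not pass (1.77 ± 0.44, edgeR adjusted p = 0.0763). The other flanking genes there, Zc3h11a and Chil1, had -1.36 ± 0.50 and -0.61 ± 0.49 (edgeR adjusted p = 0.151 and 0.48), so the flanking genes lay on both sides of 0. On chromosome 10 the nearest flanking genes tested were Btg1 (1.56 ± 0.44, edgeR adjusted p = 0.0962), 857 kb before Dcn, and C030005K15Rik (1.57 ± 1.2, edgeR adjusted p = 0.473), 42.4 kb after Epyc. Another calcium pump gene, Atp2b1, 1232 kb after Epyc, had 640.2 and 712 CPM in HC and 255 and 322 CPM in PC (1.23 ± 0.32, edgeR adjusted p = 0.0822). Eea1, 1434 kb before Dcn, overlapped between the groups (-0.09 ± 0.36, edgeR adjusted p = 0.899). On chromosome 13, where Aspn and Omd lay above 0 and Ogn was unsettled, the flanking genes Nol8 and Iars had 0.49 ± 0.36 and -0.33 ± 0.31 (edgeR adjusted p = 0.441 and 0.551). Ippk and Tes3-ps had -1.39 ± 0.61 and -0.64 ± 0.75 (edgeR adjusted p = 0.215 and 0.635).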
